A study of Mus musculus with 9 samples.

Results

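The epidermal growth factor (EGF) receptor family and its ligands were followed through the normal colonic mucosa of mice given a colon carcinogen with or without butyrate. The 9 genes were the receptors Egfr, Erbb2 and Erbb3 and the ligands Egf, Tgfa, Areg, Ereg, Btc and Hbegf, chosen by name. All 18 probes whose RefSeq accession maps to these genes were taken, of 41174 probes on the array, and the genes are 9 of 18353 that the RefSeq table names there. Total RNA of 9 samples of ICR mice, an outbred stock, was hybridised to Agilent mouse arrays in 1 colour (Cy3). Every group, DMH included, received the carcinogen 1,2-dimethylhydrazine (DMH), under the skin at 20 mg/kg once a week for 20 weeks, so no group shows untreated mucosa. The group called butyrate with tumors (3 arrays) was also given 1.5% butyrate in its drinking water, and its mice bore tumors. The group called butyrate without tumors (3 arrays) had the same 2 agents and no tumors. Butyrate is a fatty acid that gut bacteria make from fibre. The DMH group (3 arrays) drank normal water, and its labels give no tumor status. Tumor status here follows the sample titles, descriptions and source names. In the 6 butyrate samples, 1 other field of the labels states the reverse. If that field is the right one, the butyrate groups change places in every result. The labels do not say whether samples are separate animals, so p-values measure only the spread between these samples.

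The receptors of this family sit in the cell membrane, pair up when a ligand binds outside the cell, and pass the signal on through their tyrosine kinases to the Ras-MAPK and PI3K pathways. The ligands are made as membrane-bound precursors and are released by metalloproteases. In the gut the family drives division of crypt cells and repair of the epithelium, and it is often overactive in colorectal tumors.

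Promoters of the 4 members that passed the test in butyrate without tumors against DMH are shown first, because 2 of them, Areg and Btc, are neighbours on chromosome 5 and were both lower there, while Erbb2 on chromosome 11 and Egf on chromosome 3 were both higher relative to the array's 75th percentile. In unscaled intensities Erbb2 and Egf were lower, where the median log2 fold change of all features was -1.004. The windows run from 250 bases before the transcript start to 50 after it, in RefSeq's GRCm38.p6 build. Windows were searched for 6 of the 9 members, and none was searched for Erbb3, Ereg and Hbegf. Capitals mark matches to 5 motifs searched on both strands. These were the cAMP response element (TGACGTCA), the TATA box (TATAAA), the GC box (GGGCGG), the AP-1 site (TGANTCA) and the CCAAT box (CCAAT).
Erbb2, chr11:98412234-98412533, plus strand: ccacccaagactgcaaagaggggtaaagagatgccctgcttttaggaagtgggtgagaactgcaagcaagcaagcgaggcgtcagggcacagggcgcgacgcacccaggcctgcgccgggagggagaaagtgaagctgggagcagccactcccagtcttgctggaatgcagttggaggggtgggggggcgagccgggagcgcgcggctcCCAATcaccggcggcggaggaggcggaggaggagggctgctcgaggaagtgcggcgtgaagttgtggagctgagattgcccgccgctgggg
Egf, chr3:129755273-129755572, minus strand, the more upstream of 2 listed starts: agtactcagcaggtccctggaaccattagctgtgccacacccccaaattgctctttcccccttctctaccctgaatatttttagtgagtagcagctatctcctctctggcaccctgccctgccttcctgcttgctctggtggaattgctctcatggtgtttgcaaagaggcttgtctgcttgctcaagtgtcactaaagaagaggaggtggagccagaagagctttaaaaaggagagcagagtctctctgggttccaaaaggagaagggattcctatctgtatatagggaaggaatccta
Areg, chr5:91139349-91139648, plus strand: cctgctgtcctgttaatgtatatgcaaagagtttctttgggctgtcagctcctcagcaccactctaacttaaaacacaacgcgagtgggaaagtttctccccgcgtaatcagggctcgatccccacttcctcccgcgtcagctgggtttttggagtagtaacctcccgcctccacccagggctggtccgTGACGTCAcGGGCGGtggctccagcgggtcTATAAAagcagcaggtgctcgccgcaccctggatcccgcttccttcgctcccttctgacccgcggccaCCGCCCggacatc
Btc, chr5:91402945-91403244, minus strand: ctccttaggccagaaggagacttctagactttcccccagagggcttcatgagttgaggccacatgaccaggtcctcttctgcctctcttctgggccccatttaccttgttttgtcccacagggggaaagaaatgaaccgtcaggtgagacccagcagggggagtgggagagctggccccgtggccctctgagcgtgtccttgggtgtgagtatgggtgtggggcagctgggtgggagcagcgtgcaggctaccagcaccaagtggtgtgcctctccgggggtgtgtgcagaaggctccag
The Areg window held a cAMP response element whose first base lies at -61 from the transcript start, a GC box at -52, a TATA box at -31 and a reversed GC box at 38. None of these matches overlap. The Erbb2 window held a CCAAT box at -41, and the Btc and Egf windows held none of the 5 motifs. Of the 32851 promoter windows searched, 1.79% held the cAMP response element, 13.6% the TATA box, 35.7% the GC box, 7.81% the AP-1 site and 37.4% the CCAAT box. The GC content was 66% for Erbb2, 49% for Egf, 59.3% for Areg and 60.3% for Btc, against a median of 52.7% over all windows. A match is a description of the letters and not of binding.

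Each value below is the log2 intensity of a probe minus the log2 of its array's 75th percentile intensity, in log2 units, so that 0 is the brightness of that percentile. Values are compared between arrays for the same probe and never between probes. The 75th percentile intensity was 188 to 880 in butyrate with tumors, 281 to 444 in butyrate without tumors and 740 to 822 in DMH, and the share of spots well above background was 57.8% to 72.5%. The arrays of butyrate without tumors and array 1 of butyrate with tumors lay on slide 1, arrays 2 and 3 of butyrate with tumors on slide 2, and the DMH arrays on slides 3 and 4, scanned on another day, so slide, scan day and butyrate cannot be told apart in any comparison with DMH. All 12 epithelial markers of the labelled colonic mucosa were well above background on all 9 arrays, and so were all 10 markers of smooth muscle, the tissue beneath the mucosa. In bulk tissue, fewer cells of a type and less RNA per cell cannot be told apart.

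Of the 18 member probes 17 passed the filter on dim probes (well above background on at least 3 arrays), and each of the 9 genes kept at least 1. The dimmer Btc probe was not well above background on any array and was not tested. Where a gene had several probes, the one with the highest mean over the 9 arrays stands for it. Tests were moderated tests of limma across 21964 features, adjusted by Benjamini-Hochberg over all of them, and a feature is called at an adjusted p under 0.05.

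**Figure D1:**
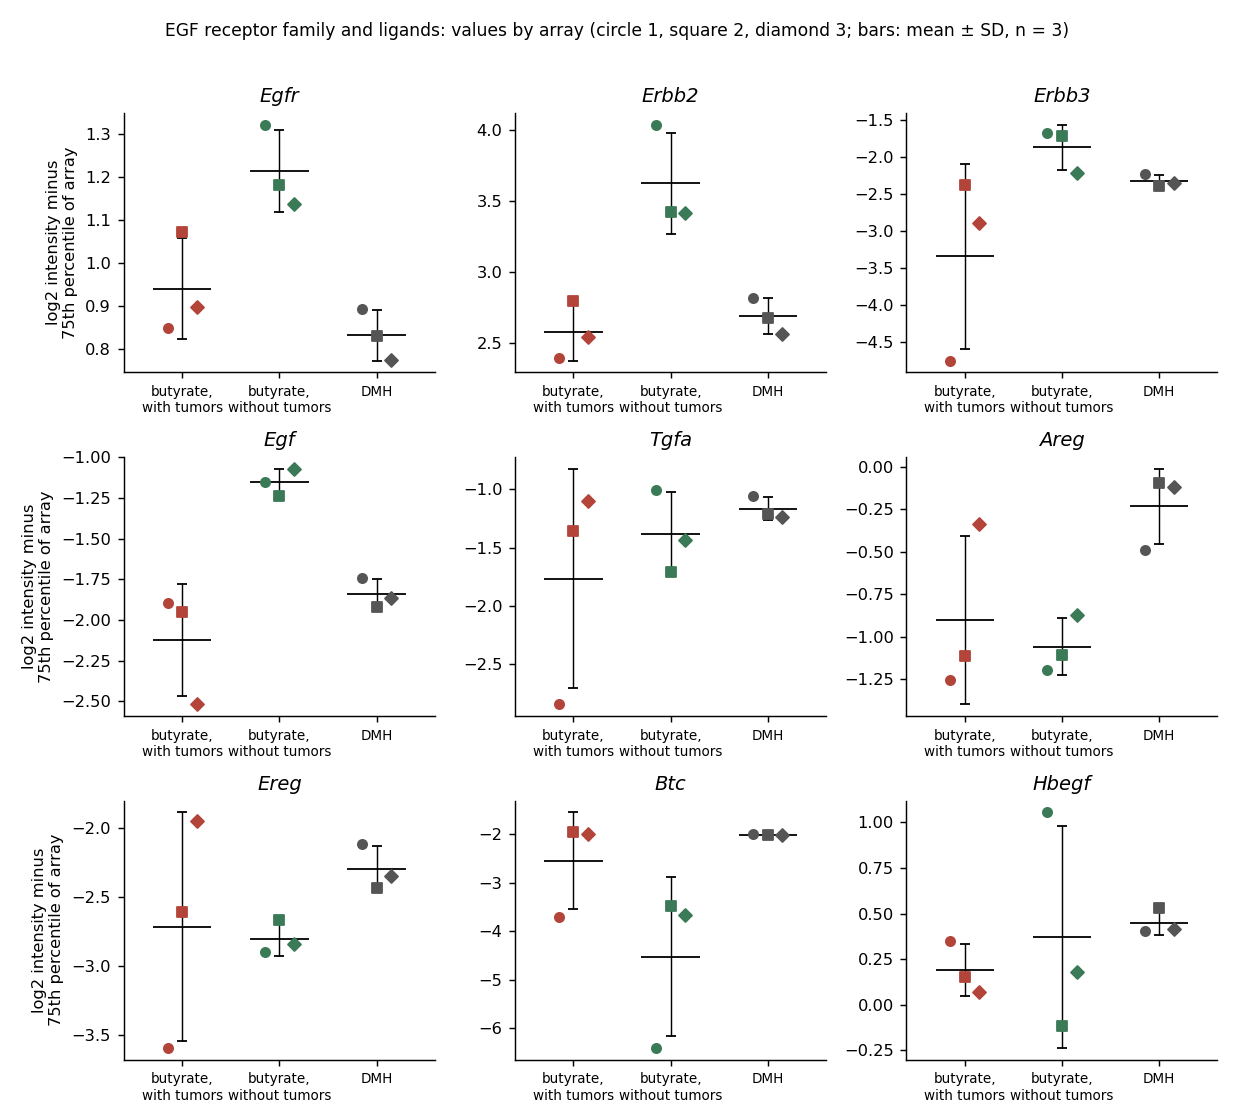
Level of each of the 9 genes on each of the 9 arrays (log2 intensity minus the array's 75th percentile), with circles, squares and diamonds for arrays 1, 2 and 3, and mean ± SD bars (n = 3) for butyrate with tumors, butyrate without tumors and DMH. Erbb2 and Egf were highest on the 3 arrays of butyrate without tumors (unscaled intensities turn the sign of both against DMH), Areg and Btc were lowest there on average, and array 1 of butyrate with tumors lay far below the others for Erbb3 and Tgfa. The lowest Erbb3 and Btc points were not well above background.

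Relative to the array's 75th percentile, mucosa with butyrate and no tumors had less Areg and Btc transcript than with DMH alone, and more Erbb2 and Egf. In unscaled intensities Erbb2 and Egf were lower too, where the median log2 fold change of all features was -1.004. In all, 4 of the 9 genes were called in this comparison, 2 higher and 2 lower, where 30.5% of all features were called (16.6% higher and 13.8% lower). No member was called there when DMH array 2 or DMH array 3 was left out. In mucosa of tumor-bearing mice on butyrate, no member was called against DMH, where 5.7% of all features were (3.44% higher and 2.26% lower). Set against butyrate without tumors, Erbb2 and Egf were lower with tumors, which makes 2 of 9 called, where 13.5% of all features were called (6.99% higher and 6.56% lower). With both butyrate groups joined against DMH, no member was called, where 9.2% of all features were called (5.85% higher and 3.35% lower). At an unadjusted p under 0.05 these comparisons held 9777, 6573, 7599 and 6857 of the 21964 features, in that order. In the comparisons of butyrate with tumors and of all butyrate with DMH, Areg was the 1 member with an unadjusted p under 0.05. The members' median log2 fold change was -0.077 in butyrate without tumors against DMH, beside 0.076 over all features. It was -0.42 with tumors against DMH, -0.27 with tumors against without tumors and -0.28 for all butyrate against DMH, beside 0.084, 0.014 and 0.083 over all features.

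**Figure D2:**
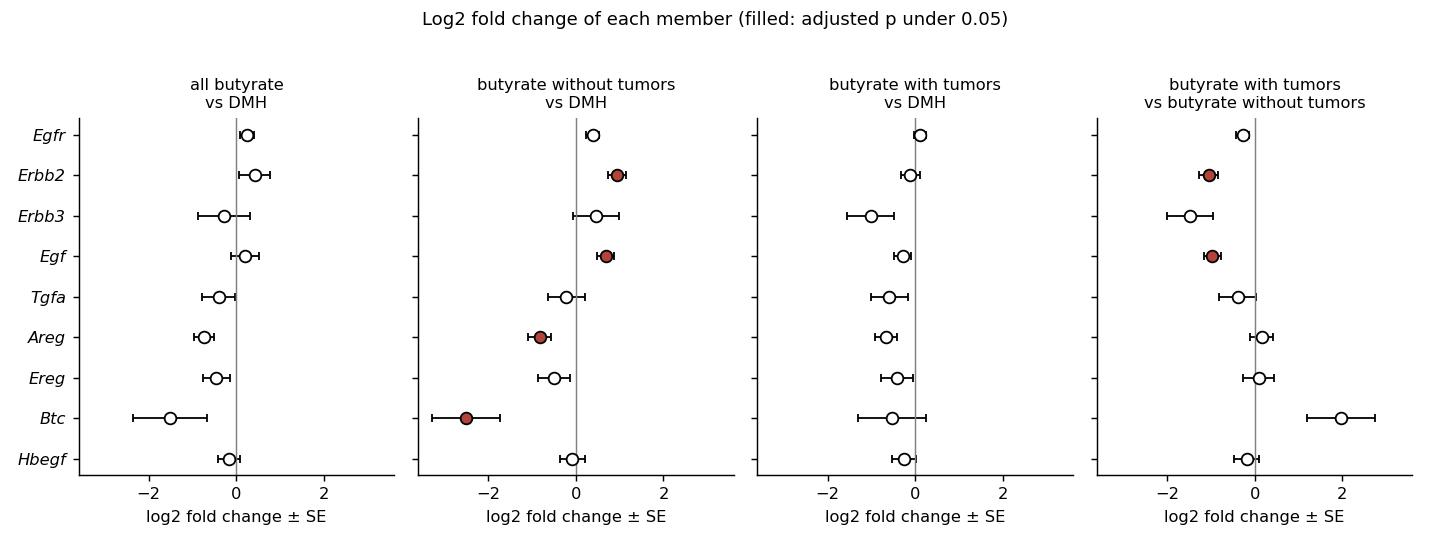
Log2 fold change ± SE of each gene in the 4 comparisons, the group named first over the group named second, with filled circles at adjusted p under 0.05. Filled are Erbb2, Egf, Areg and Btc in butyrate without tumors against DMH, where unscaled intensities turn the sign of Erbb2 and Egf, and Erbb2 and Egf in butyrate with tumors against butyrate without tumors.

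Erbb2 encodes the receptor that has no known ligand of its own and acts as the preferred partner of the others. Its probe read 2.40, 2.80 and 2.54 in butyrate with tumors, 4.04, 3.42 and 3.42 in butyrate without tumors, and 2.82, 2.68 and 2.57 in DMH. Every array without tumors lay above every other array, while the arrays with tumors overlapped DMH. Erbb2 averaged 3.63 ± 0.36 in butyrate without tumors and 2.69 ± 0.13 in DMH (SD, n = 3 each), a log2 fold change of 0.94 ± 0.21 (SE, adjusted p = 0.0145), or 1.92-fold, but with unscaled intensities the change was -0.14, against a median of -1.004 over all features. Measured from the median of all features, Erbb2 stood at 0.86, and at 0.70 with quantile scaling. Unscaled intensities have to give the same 0.86, because the scaling subtracts 1 constant per array. With tumors it averaged 2.58 ± 0.20 (SD, n = 3), which was lower than without tumors by a log2 fold change of -1.05 ± 0.21 (adjusted p = 0.0226), or 2.07-fold. This direction held under every scaling tried. Against DMH the group with tumors differed by -0.11 ± 0.21 (adjusted p = 0.751). The call without tumors against DMH was lost without DMH array 2 (adjusted p = 0.055) or DMH array 3 (0.0605) and with slide as a random block (0.99 ± 0.31, adjusted p = 0.0979). The call between the butyrate groups was lost without array 3 with tumors (adjusted p = 0.0807) and, barely, without DMH array 2 (0.0505).

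Egfr encodes the receptor for EGF itself and for all 6 ligands measured. Its brightest probe read 0.85, 1.07 and 0.90 in butyrate with tumors, 1.32, 1.18 and 1.14 in butyrate without tumors, and 0.89, 0.83 and 0.78 in DMH. The group without tumors lay above both others on every array, by small steps. The log2 fold change was 0.38 ± 0.14 for butyrate without tumors against DMH (adjusted p = 0.0723), 0.11 ± 0.14 for butyrate with tumors against DMH (adjusted p = 0.635) and -0.27 ± 0.14 between the groups with and without tumors (adjusted p = 0.205), so Egfr passed in none of them. Unscaled, the first of these was -0.70 and the last 0.19. Relative to the median of all features they were 0.30 and -0.29, which has to be the same scaled and unscaled. With quantile scaling they were 0.24 and -0.14 from that median. The order of the group means was without tumors, with tumors, DMH, and the neighbours with tumors and DMH overlapped.

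Erbb3 encodes a receptor with a weak kinase that binds neuregulins and signals through its partners, chiefly to PI3K. Its brightest probe read -4.75, -2.38 and -2.90 in butyrate with tumors, -1.67, -1.72 and -2.22 in butyrate without tumors, and -2.23, -2.39 and -2.35 in DMH. The lowest value, on array 1 with tumors, was not well above background, and the 3 arrays without tumors lay above all others. Erbb3 averaged -3.34 ± 1.25 with tumors and -1.87 ± 0.30 without tumors (SD, n = 3 each), a log2 fold change of -1.47 ± 0.53 (adjusted p = 0.0917). Without array 1 with tumors this was -0.77 (adjusted p = 0.0354). Against DMH it was 0.45 ± 0.53 without tumors (adjusted p = 0.53, and -0.63 unscaled) and -1.02 ± 0.53 with tumors (adjusted p = 0.227).

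The receptor genes had more than 1 probe, and each probe was also fitted on its own among 28521 probes, where 30.2% were called for butyrate without tumors against DMH and 13.2% for butyrate with tumors against butyrate without tumors. In the first of these comparisons 5 of the 17 member probes were called, 3 higher and 2 lower, and in the other 6 were called, all lower. The dimmest Egfr probe was called in butyrate without tumors against DMH (0.71 ± 0.19, adjusted p = 0.0257) and read -2.996, -2.59 and -2.60 with tumors, -2.31, -2.07 and -2.46 without tumors, and -3.22, -2.87 and -2.89 in DMH. The other two Egfr probes were not called there (0.42 and 0.20) but were lower with tumors than without (-0.86 ± 0.23, adjusted p = 0.0461, and -0.87 ± 0.23, adjusted p = 0.0424). The brighter of them read -1.31, -0.45 and -0.78 with tumors, 0.26, -0.088 and -0.13 without tumors, and -0.32, -0.46 and -0.43 in DMH. The dimmer read -1.91, -1.08 and -1.23 with tumors, -0.38, -0.60 and -0.63 without tumors, and -0.67, -0.70 and -0.84 in DMH. The array annotation gives the brightest and dimmest Egfr probes 1 transcript accession and the other two another. Relative to the array's 75th percentile, all 4 Egfr probes were higher in butyrate without tumors than in DMH on every array, and lower with tumors than without on every array, but in unscaled intensities all 4 turned their sign against DMH (-0.37 to -0.88), and the brightest (0.19) and the dimmest (0.021) turned theirs between the butyrate groups.

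The dimmer Erbb2 probe read -2.40, -1.17 and -1.33 with tumors, 0.15, -0.60 and -0.55 without tumors, and -0.50, -0.65 and -0.64 in DMH. It gave the same fall with tumors against without tumors (-1.30 ± 0.34, adjusted p = 0.0429), but against DMH it was 0.27 ± 0.34 without tumors (adjusted p = 0.57), with overlapping groups, so the higher Erbb2 against DMH rests on the brighter probe. With the mean of both probes, the Erbb2 change without tumors against DMH was not called (adjusted p = 0.119). The second Erbb3 probe was called lower with tumors than without (-1.25 ± 0.32, adjusted p = 0.0423) at -4.87, -3.48 and -3.79 with tumors, against -2.74, -2.69 and -2.96 without tumors. The third had -1.93 ± 0.59 (adjusted p = 0.0629), and the dimmest, well above background on 4 of 9 arrays, had -0.13 ± 0.46 (adjusted p = 0.863).

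**Figure D3:**
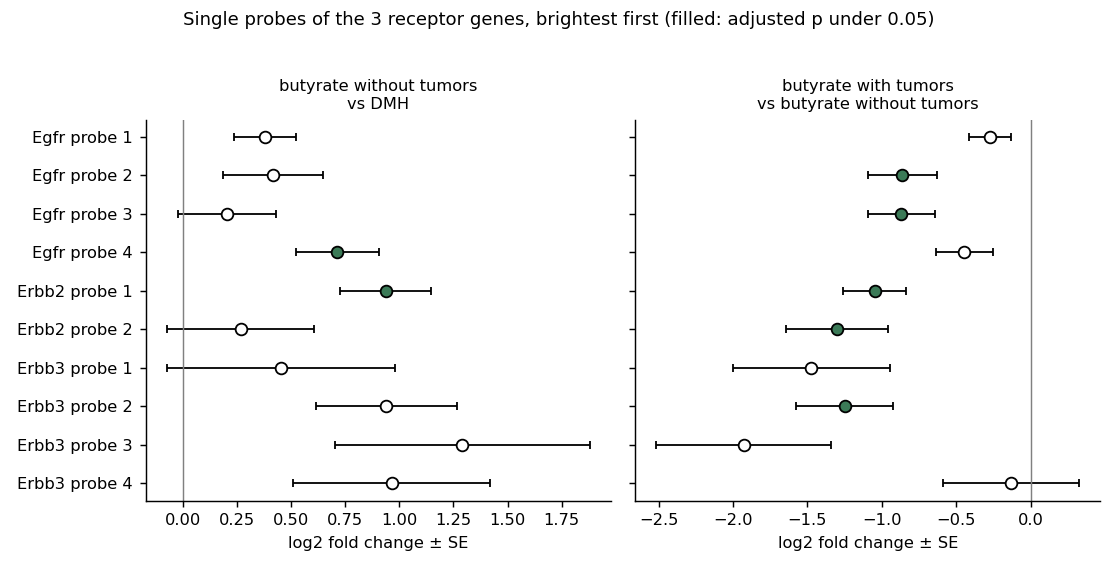
Log2 fold change ± SE of each probe of the 3 receptor genes, ordered from the brightest probe of each gene down, for butyrate without tumors against DMH (left) and butyrate with tumors against butyrate without tumors (right), with filled circles at adjusted p under 0.05. All points on the left lie above 0 and all on the right lie below 0, relative to the array's 75th percentile (in unscaled intensities 9 of these 10 probes turn their sign on the left and 3 of 10 on the right).

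Egf encodes the founding ligand, made in salivary glands and kidney. It read -1.90, -1.95 and -2.52 in butyrate with tumors, -1.15, -1.24 and -1.07 in butyrate without tumors, and -1.74, -1.92 and -1.86 in DMH. The arrays without tumors stood clear of all others, and those with tumors reached the lowest values while overlapping DMH. Egf averaged -1.15 ± 0.084 without tumors and -1.84 ± 0.092 in DMH (SD, n = 3 each), a log2 fold change of 0.69 ± 0.19 (adjusted p = 0.0295), or 1.61-fold, but unscaled the change was -0.39, against -1.004 over all features. With tumors it averaged -2.12 ± 0.34 (SD, n = 3), lower than without tumors by a log2 fold change of -0.97 ± 0.19 (adjusted p = 0.0223), or 1.96-fold, in the same direction under every scaling tried. Against DMH the group with tumors differed by -0.28 ± 0.19 (adjusted p = 0.35). The call against DMH was lost on leaving out any 1 array of DMH (adjusted p = 0.0616 to 0.103) or of butyrate without tumors (0.0645 to 0.0734), and with slide as a random block (adjusted p = 0.22). The call between the butyrate groups was lost without array 3 with tumors (adjusted p = 0.0612) or any 1 array without tumors (0.0528 to 0.0553).

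Areg encodes amphiregulin, a ligand that epithelial and immune cells release during tissue repair. It read -1.25, -1.11 and -0.34 in butyrate with tumors, -1.19, -1.11 and -0.87 in butyrate without tumors, and -0.49, -0.094 and -0.12 in DMH. All 3 DMH arrays lay above those without tumors, and 1 array with tumors fell among the DMH arrays. Areg averaged -1.06 ± 0.17 without tumors and -0.23 ± 0.22 in DMH (SD, n = 3 each), a log2 fold change of -0.82 ± 0.26 (adjusted p = 0.0427), or 1.77-fold lower. With tumors the change against DMH was -0.67 ± 0.26 (adjusted p = 0.13). For all butyrate arrays against DMH it was -0.75 ± 0.23 (adjusted p = 0.0671), lower in 5 of 6 arrays than every DMH array. It passed there without array 3 with tumors (-0.87, adjusted p = 0.021). The butyrate groups differed by 0.16 ± 0.26 (adjusted p = 0.692). The call without tumors was lost on leaving out any 1 array of DMH (adjusted p = 0.0589 to 0.132) or of butyrate without tumors (0.0605 to 0.109), and with slide as a random block (adjusted p = 0.294).

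Btc encodes betacellulin, a ligand of both Egfr and Erbb4. It read -3.70, -1.96 and -1.99 in butyrate with tumors, -6.41, -3.48 and -3.67 in butyrate without tumors, and -2.001, -2.02 and -2.02 in DMH. The value of -6.41 was not well above background, and the arrays without tumors lay below all DMH arrays and overlapped those with tumors. Btc averaged -4.52 ± 1.64 without tumors and -2.01 ± 0.011 in DMH (SD, n = 3 each), a log2 fold change of -2.51 ± 0.77 (adjusted p = 0.0403), or 5.69-fold lower, measured above background on 2 of 3 arrays without tumors. Without array 1 of butyrate without tumors the change was -1.56 (adjusted p = 0.0637). The call was also lost without any 1 DMH array (adjusted p = 0.0903 to 0.101), without array 2 or 3 with tumors (0.0503 and 0.053), and with slide as a random block (adjusted p = 0.295). With tumors the change against DMH was -0.53 ± 0.77 (adjusted p = 0.669), and between the butyrate groups it was 1.97 ± 0.77 (adjusted p = 0.114).

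The other ligands were called in no comparison. Tgfa encodes transforming growth factor alpha, the usual Egfr ligand of gut epithelium. It read -2.84, -1.36 and -1.10 in butyrate with tumors, -1.002, -1.71 and -1.44 in butyrate without tumors, and -1.06, -1.21 and -1.24 in DMH. The groups overlapped throughout, and array 1 with tumors was lowest. Its log2 fold changes were -0.60 ± 0.42 with tumors against DMH (adjusted p = 0.363) and -0.21 ± 0.42 without tumors against DMH (adjusted p = 0.719). The dimmer Tgfa probe had -0.40 ± 0.25 and -0.15 ± 0.25 in these comparisons.

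Ereg encodes epiregulin and lies between Epgn and Areg on chromosome 5. It read -3.597, -2.61 and -1.95 in butyrate with tumors, -2.90, -2.67 and -2.84 in butyrate without tumors, and -2.11, -2.43 and -2.35 in DMH. The arrays without tumors lay below all DMH arrays, as for Areg beside it and Btc beyond that, while those with tumors spread across both groups. The change without tumors against DMH was -0.51 ± 0.36 (adjusted p = 0.308), and with tumors it was -0.42 ± 0.36 (adjusted p = 0.462).

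Hbegf encodes the heparin-binding ligand, which binds heparan sulfate on cell surfaces. It read 0.35, 0.16 and 0.072 in butyrate with tumors, 1.05, -0.12 and 0.18 in butyrate without tumors, and 0.40, 0.53 and 0.41 in DMH. All arrays with tumors lay just below the DMH arrays, and the group without tumors was split by its array 1. The change with tumors against DMH was -0.26 ± 0.28 (adjusted p = 0.56), and without tumors it was -0.077 ± 0.28 (adjusted p = 0.851).

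Over the 9 genes, 7 had no overlap between butyrate without tumors and DMH, where 60% of all features had none. Between the groups with and without tumors 4 of 9 had no overlap, beside 33.3% of all features, and with tumors against DMH this was 1 of 9, beside 42.5%. With all butyrate arrays against DMH none of the 9 genes was free of overlap, where 26.3% of all features were. The genes differed in how tightly their arrays agreed. In DMH every member had an SD between 0.011 and 0.22, while array 1 with tumors gave Erbb3, Tgfa, Ereg and Btc the lowest value of their group and SDs of 0.83 to 1.25. That array was also the lowest of its group for Egfr, Erbb2 and Areg, with SDs of 0.12 to 0.49.

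Slide 1 held arrays of both butyrate groups, so their difference could be measured within it, with array 1 alone standing for butyrate with tumors. There Erbb2 differed by -1.23 ± 0.36 (adjusted p = 0.179), Egf by -0.74 ± 0.23 (adjusted p = 0.199), Erbb3 by -2.88 ± 0.33 (adjusted p = 0.0888) and Btc by 0.82 ± 1.31 (adjusted p = 0.771). These 4 directions were those of the full comparison, while Areg (-0.20) and Ereg (-0.79) turned theirs, and no member was called by limma, with 5 of 9 at an unadjusted p under 0.05. When slide was a fixed block over the 6 butyrate arrays Erbb2 was not called (-1.23 ± 0.33, adjusted p = 0.106), nor was Egf (-0.74 ± 0.29, adjusted p = 0.204). Slide 2 held only arrays with tumors, so this block too sets array 1 with tumors alone against the group without tumors and assumes that it varies like the others. Erbb3 had an adjusted p of 0.0477 there (-2.88 ± 0.34), on a value of that array that was not well above background. With slide as a random block both Erbb2 (adjusted p = 0.0302) and Egf (0.042) stayed called between the butyrate groups, and Erbb3 passed too (-2.20 ± 0.48, adjusted p = 0.0324), again with the value that was not well above background.

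Marker genes of several cell types also differed between the groups. The 12 epithelial markers summed to 672 to 959 times the array's 75th percentile intensity in butyrate with tumors, 724 to 903.5 in butyrate without tumors and 1389 to 1606 in DMH. The 8 goblet cell markers summed to 191 to 750 with tumors, 423 to 565 without tumors and 1286 to 1409 in DMH. The 10 smooth muscle markers summed to 526 to 1006 with tumors, 440 to 971 without tumors and 272 to 475 in DMH, and 5 of them were called higher without tumors than in DMH. Both butyrate groups thus had lower sums of epithelial and goblet cell markers than DMH. Without tumors 6 of 12 and 4 of 8 were called lower, and 1 of the 12 was called higher. With tumors 5 of 12 and 6 of 8 were called lower, and 0 of either list higher. The 10 enteric neuron and glia markers summed to 4.34 to 14.6 with tumors, 7.335 to 14 without tumors and 3.43 to 4.34 in DMH. Of 7 neutrophil markers 6 were tested and 2 were well above background on all 9 arrays, and they summed to 0.59 to 5.84 with tumors, 0.135 to 0.339 without tumors and 3.70 to 3.996 in DMH. All 6 were called lower without tumors than in DMH, and 4 of 6 were called higher with tumors than without. The macrophage markers summed to 26 to 30.3 with tumors, 19.4 to 26.4 without tumors and 27.1 to 27.6 in DMH, so the arrays without tumors lay below DMH, and 3 of 6 were called lower there. The squamous markers summed to 4.98 to 8.68 with tumors, 3.855 to 12.2 without tumors and 9.335 to 10.01 in DMH, so the arrays with tumors lay below DMH, and 3 of 6 were called lower without tumors than in DMH. The fibroblast markers overlapped, at 113 to 134 with tumors, 57.9 to 161 without tumors and 113 to 122 in DMH. The part of these markers in the members' differences was not tested.

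Among 6 further genes of the family 3 were measured, and 1 was called without tumors against DMH, where 30.5% of all features were called. Epgn, the gene of the ligand epigen next to Ereg, was higher in butyrate without tumors at -2.41, -3.31 and -2.46, against -3.64, -3.92 and -3.76 in DMH (1.04 ± 0.30, adjusted p = 0.0334), though unscaled it was -0.035 against -1.004 over all features. Of the 4 neighbouring ligand genes on chromosome 5, Epgn was therefore higher without tumors than in DMH where Areg and Btc were lower, under the scaling used. Nrg1, a neuregulin that binds Erbb3 and Erbb4 (-0.81 ± 0.34, adjusted p = 0.101), and Nrg4, one that binds Erbb4 (-0.18 ± 0.29, adjusted p = 0.648), were not called. Of the genes that shed ligands or block shedding 4 of 5 were measured, and 1 was called, Timp3, a metalloprotease inhibitor, higher without tumors than in DMH by 0.98 ± 0.29 (adjusted p = 0.0367) and at -0.10 unscaled. Adam17, which cleaves most of the ligands, had 0.47 ± 0.25 (adjusted p = 0.176).

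Downstream of the receptors, adaptors and the Ras-MAPK cascade had 16 of 17 genes measured. Without tumors against DMH 7 were called higher and 1 lower (median 0.62, beside 0.076 over all features), and with tumors against without tumors none was called higher and 6 lower (median -0.41, beside 0.014). Over all features 30.5% were called in the first of these comparisons and 13.5% in the other. The exchange factor Sos2 (0.85 ± 0.14, adjusted p = 0.00476) and the kinase Braf (1.11 ± 0.17, adjusted p = 0.00381) were among the higher ones. Unscaled, Sos2 was at -0.23 and Braf at 0.033 (adjusted p = 0.972), so the higher Braf also depended on the scaling. The Braf probes disagreed, since 2 other Braf probes had 0.43 (adjusted p = 0.0478) and -1.07 without tumors against DMH. Hras was called lower in all butyrate arrays against DMH (-0.81 ± 0.18, adjusted p = 0.0344).

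The PI3K, PLC, Src and STAT branch had all 15 genes measured. Without tumors against DMH 3 were higher and 2 lower, where 30.5% of all features were called. With tumors against without tumors 2 were higher and 1 lower, where 13.5% of all features were called. The kinase gene Src was higher without tumors than in DMH (0.67 ± 0.16, adjusted p = 0.0188, but -0.41 unscaled) and lower with tumors than without (-0.80 ± 0.16, adjusted p = 0.023). The transcription factor gene Stat5b went the other way, at -0.94 ± 0.17 (adjusted p = 0.0064) and 1.25 ± 0.17 (adjusted p = 0.0118), though a dimmer probe of it had -0.076 and 0.76. Of 19 genes of receptor turnover and feedback 16 were measured, with 4 higher and 1 lower without tumors against DMH, beside the same 30.5% of all features. Of this list, Lrig2 was higher in both butyrate groups than in DMH, with 1.08 ± 0.26 with tumors (adjusted p = 0.0492) and 1.65 ± 0.26 without tumors (adjusted p = 0.00439). The dimmer Lrig2 probe had 0.31 and 0.36 with neither called.

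Transcripts that EGF receptor signalling is known to induce had 14 of 16 genes measured. Without tumors against DMH 2 were called higher and 4 lower, where 30.5% of all features were called. Fosb, an early response factor, had 1.30 ± 0.25 (adjusted p = 0.00869) and Dusp1, a MAPK phosphatase, 1.16 ± 0.20 (adjusted p = 0.00576). Ier3 had -2.04 ± 0.36 (adjusted p = 0.00678) and the ETS factor Etv5 -1.01 ± 0.20 (adjusted p = 0.00993). With tumors against without tumors Ier3 was higher (1.50 ± 0.36, adjusted p = 0.0361) and Dusp1 lower (-0.95 ± 0.20, adjusted p = 0.0242). For all butyrate against DMH the 6 lists held 3 higher and 2 lower calls, where 9.2% of all features were called. With tumors against DMH they held 2 higher and 1 lower, beside 5.7% of all features. Over all 6 lists, 26 calls were made without tumors against DMH. Unscaled intensities turned the sign of 13 of these. Their side of the median of all features cannot change there, because the scaling subtracts 1 constant per array. With quantile scaling all 26 kept their sign.

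**Figure D4:**
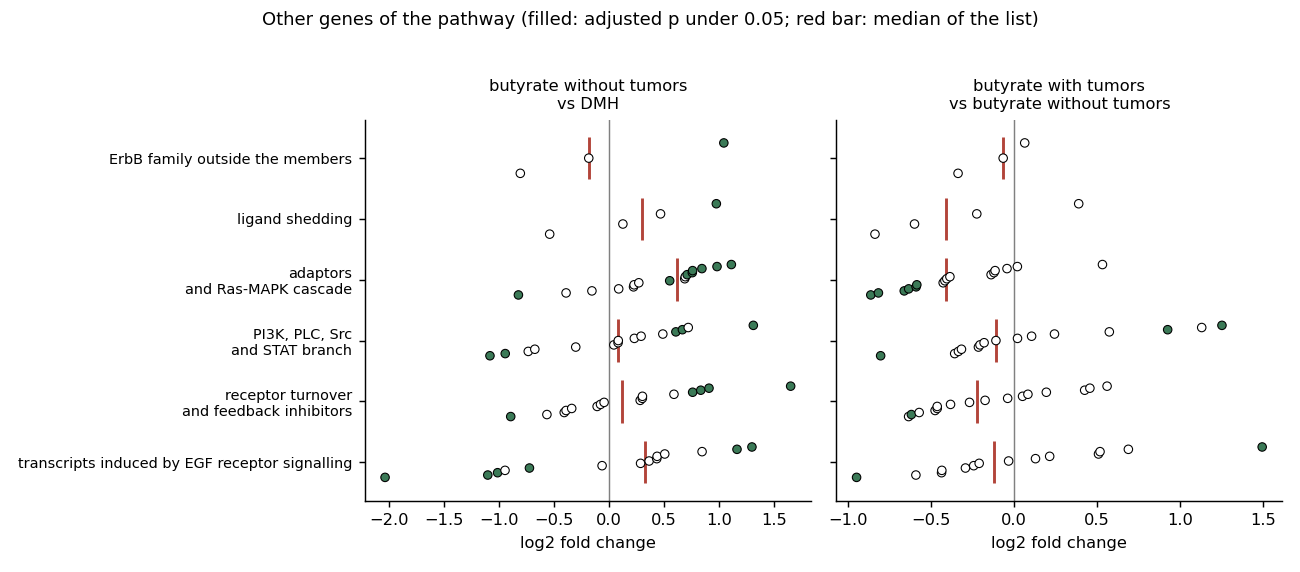
Log2 fold change of every measured gene of 6 lists of the pathway for butyrate without tumors against DMH (left) and butyrate with tumors against butyrate without tumors (right), with filled circles at adjusted p under 0.05 and a red bar at each list's median. In adaptors and the Ras-MAPK cascade 7 filled points lie above 0 and 1 below on the left, where 30.5% of all features were called. On the right 6 lie below 0, where 13.5% of all features were called. Unscaled intensities turn the sign of 13 of the 26 calls on the left.

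For each member well above background on all 9 arrays, the named genes with the most similar profile were found by Pearson's r over the 9 arrays among 12963 genes. These arrays fall into 3 groups on 4 slides, so r can follow the differences between groups or a single array. Erbb2 was most like Klf10 (r = 0.99), Zmym6 (0.988) and Lpin3 (0.98). Egf was most like Irf2bp2 (0.993), Zkscan1 (0.989) and Cryl1 (0.988), and Egfr like Rnd3 (0.979), Epb41l3 (0.975) and Stx17 (0.972). Areg was most like Prrc2a (0.944), Etv5 (0.939) and Rexo1 (0.936), and Etv5 thus stood close to Areg as well as among the induced transcripts. Tgfa was most like Rhobtb3 (0.982), Furin (0.977) and Samd4b (0.96), Ereg like Ppp1r13l (0.967), Rnf32 (0.96) and Zfp30 (0.949), and Hbegf like Ramp2 (0.925) and Pmm1 (0.915). Tgfa, Ereg and the genes most like them were all lowest on array 1 with tumors. Hbegf, Ramp2 and Pmm1 were all highest on array 1 without tumors. The part of these single arrays in r was not tested.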

How the data were processed

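The 9 scanner files hold intensity per spot as the authors deposited them, with flag columns (other values, deposited as 0 or 1). Per the file headers they come from Agilent Feature Extraction 10.5.1.1, which subtracted background and did not scale between arrays. The authors' value table gives log2 values for 21829 probes, each column being log2 of the scanner signal minus 1 constant per array; what sets the constant is unknown, and the column medians ran from 2.71 to 3.20. Of 43379 spots per array, outlier spots were set to missing and spots of a probe averaged. RefSeq names were found for 26933 of 41174 probes, using the annotation in the butyrate files for all arrays. In the DMH files 4725 probes carried another accession. Values were log2 minus the array's 75th percentile. Probes well above background on at least 3 arrays with at least 2 values per group were kept (28521), which left 21964 features with 1 probe per gene. limma 3.58.1 in R 4.3.3 (statmod 1.5.0 for the random block) was fitted with 2 groups for all butyrate against DMH and with 3 groups otherwise, and was tested on simulated data. The rest was done in Python 3.11.15 with matplotlib 3.10.9, pandas 2.3.3 and numpy 2.4.6. The members and gene lists were chosen with earlier results of these data known. Besides the members, the text names up to 4 called genes of each list per comparison by smallest p and the 3 genes most like each member; Nrg1, Nrg4 and Adam17 were added after their values were seen, and 2 genes the rule names are not reported here. Alternatives were other scalings, background correction, filters, probe summaries, variance models, blocks and left-out arrays.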

Additional observations from a re-analysis of the deposited data

Results flagged for a closer look

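11 of the named results stood out because the butyrate groups differed by a test of the difference itself (limma, adjusted p under 0.05), given here as the log2 fold change of butyrate with tumors over butyrate without tumors. The members among them were Erbb2 (-1.05) and Egf (-0.97). In the cascade below the receptors these were Sos1 (-0.59), Sos2 (-0.59) and Map2k1 (-0.66). In the Src and STAT branch these were Src (-0.80), Stat5b (1.25) and Stat5a (0.93). The feedback gene Spry2 had -0.62, while a much dimmer probe of it had 1.27 (adjusted p = 0.177), and the induced transcripts Ier3 and Dusp1 had 1.50 and -0.95. The part that array 1 with tumors or the slides play in these was not tested for the genes outside the members. No array of the 6 butyrate arrays stood apart from the other 5 by Dixon's test in any of the 29 named results. The test took both butyrate groups together, so a difference between them widens the range and can hide a stray array.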

How the results depend on the processing

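Both calls and directions depended on the setting, and the cause of each shift was not tested. Between 2841 and 9941 features were called without tumors against DMH when 1 array was left out, 4 to 1792 with tumors against DMH, 177 to 7774 between the butyrate groups and 7 to 3626 for all butyrate, where all arrays gave 6695, 1252, 2976 and 2020. For the members these ranges were 0 to 5, 0 to 0, 0 to 4 and 0 to 1, where all arrays gave 4, 0, 2 and 0. With no scaling 35 features were called for all butyrate, 1550 without tumors and 35 with tumors (both against DMH), and 1 between the butyrate groups. Array weights gave 11906, 12755, 4979 and 7248, in that order. Members called without tumors against DMH then numbered 1 with no scaling, and between the butyrate groups none with no scaling (1 at an unadjusted p under 0.05) and 4 with array weights, which also gave 5 for all butyrate. The authors' values gave 1197 features for all butyrate and 1956 with tumors against DMH, with 1 member called of the 7 in their table. With no filter on dim probes there were 511 features for all butyrate, 190 with tumors against DMH, 1442 between the butyrate groups, and 1 member without tumors against DMH. Slide as a random block gave 17 features for all butyrate, 1006 without tumors and 4 with tumors against DMH, and no member without tumors (1 at an unadjusted p under 0.05). Slide as a fixed block, where 1 array stands for the group with tumors, gave 357 features and 1 member (Erbb3) between the butyrate groups. Within slide 1 no feature and no member was called by limma (4474 and 5 at an unadjusted p under 0.05), and with only the 2 groups compared there were none of either between the butyrate groups (5838 and 3) and 356 features with tumors against DMH. All 3 groups in 1 fit gave 5052 features and 1 member (Areg, adjusted p = 0.0454) for all butyrate. The replicate block gave 583 features for all butyrate and 477 with tumors against DMH, and changed no count of members. Arrays of the same number correlated at -0.0095 to 0.26, so the numbers were not taken as a pairing.

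The share of calls that were higher was 60.4% with tumors against DMH, 47.5% with quantile scaling and 2.86% unscaled. Between the butyrate groups it was 51.6%, 38.8% with quantile scaling and 100% for the 1 unscaled call. For all butyrate it was 63.6% and 0% unscaled, and without tumors against DMH 54.6% and 0.323% unscaled.

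Apart from the left-out arrays, 34 of the members' alternative values turned their sign, 443 kept sign and side of the threshold, 19 became called and 19 lost the call. The turned log2 fold changes were these. Unscaled, all butyrate had -0.60 for Egfr, -0.43 for Erbb2 and -0.64 for Egf. Without tumors against DMH these were -0.70, -0.14 and -0.39, with Erbb3 at -0.63. With tumors, Egfr had -0.50 against DMH and 0.19 against without tumors, where Tgfa had 0.083 and Hbegf 0.29. The authors' values gave Hbegf 0.039 without tumors and Egfr -0.068 with tumors against DMH, and -0.13 for Areg and -0.20 for Ereg between the butyrate groups. Ereg had -0.13 there with quantile scaling and -0.10 with normexp. The mean of the probes gave Erbb3 0.32 for all butyrate and Egfr -0.18 with tumors against DMH. Array weights gave Erbb3 0.23 for all butyrate, Ereg 0.085 with tumors against DMH, and Tgfa 0.26 and Hbegf 0.035 between the butyrate groups. The random slide block gave Tgfa 0.19 without tumors against DMH, and Areg -0.025 and Ereg -0.36 between the butyrate groups, which were -0.20 and -0.79 with the fixed block and within slide 1. Without the 4 butyrate arrays of slide 1, all butyrate had -0.021 for Erbb2, -0.39 for Egf, 0.021 for Ereg and 0.044 for Btc. Leaving out 1 array turned 9 of the members' values. Over the left-out arrays, Hbegf ran from -0.42 to 0.16 between the butyrate groups and from -0.42 to 0.17 without tumors against DMH (0.020 without array 3 without tumors). Erbb3 ran from -0.47 to 0.15 for all butyrate. With tumors against DMH, Ereg ran from -0.80 to 0.021 and Btc from -0.83 to 0.044. Between the butyrate groups, Tgfa ran from -0.72 to 0.15, Areg from -0.13 to 0.33 and Ereg from -0.30 to 0.53. The positive ends of Erbb3, Ereg against DMH, Btc and Tgfa came without array 1 with tumors, and the negative ends of Areg and Ereg between the butyrate groups without its array 3. Of the turned changes, Erbb2 and Egf without tumors against DMH were called with scaling, and none was called where it was turned. The brightest probes of Btc and Erbb3 each had 1 array not well above background, and every group held only 3 arrays. What limits each result was not tested.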
